A study of Mus musculus with 16 samples.

Results

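Heat shock proteins are molecular chaperones, and 10 of their genes were followed here across mouse hearts that differed in treatment and genotype. They were taken by gene symbol: Hspa1a, Hspa1b and Hspa8 of the Hsp70 family, Hsph1 (Hsp110), Hsp90aa1 (the stress-responsive cytosolic Hsp90), Dnajb1 (Hsp40), the small heat shock proteins Hspb1, Hspb8 and Cryab, and the transcription factor Hsf1. All 10 were found among the 55278 gene symbols of the count tables, and all 10 passed the filter on low counts that kept 18713 genes for testing. The libraries came from the hearts of male C57BL/6J mice of 8 to 12 weeks. The mice were PPARα-deficient in cardiomyocytes or carried the floxed Ppara allele alone (Ppara-flox). Mice of both genotypes were injected intraperitoneally with 5 mg/kg of lipopolysaccharide (LPS), an endotoxin of Gram-negative bacteria, or with buffered saline (PBS), and tissue was collected 12 h later. There were 4 libraries in each of the 4 groups, 16 in all. PPARα is a nuclear receptor that drives genes of fatty acid oxidation. The labels do not name the Cre line and there was no group with Cre alone, so the deletion and the presence of Cre cannot be told apart.

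Hsp70 proteins bind unfolded stretches of other proteins and release them with the help of ATP, Hsp40 proteins deliver clients to them, and Hsp110 proteins exchange their nucleotide. Hsp90 matures receptors and kinases. Small heat shock proteins hold unfolding proteins without using ATP, and in heart muscle they are abundant and bind sarcomere and cytoskeletal proteins. In unstressed cells HSF1 is kept inactive by chaperones; under stress it forms trimers that bind repeated GAA and TTC units upstream of the heat shock genes. Hspa8 is made constitutively, whereas Hspa1a and Hspa1b are the classical inducible pair.

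The inducible pair differs little in its upstream sequence. It is shown because both genes had the same order of libraries within each PBS group, though not within the LPS groups. Reads may be split between them, and a part of the sequence in that order was not tested. Stretches upstream of Hspb1 and Hsph1 are shown because these had the largest rise and the largest fall after LPS in Ppara-flox hearts among the 10 genes. The sequences come from RefSeq on GRCm38.p6 and run 5′ to 3′ on the gene's strand, and capitals mark an inverted pair of heat shock units, GAANNTTC or TTCNNGAA.
Hspa1a: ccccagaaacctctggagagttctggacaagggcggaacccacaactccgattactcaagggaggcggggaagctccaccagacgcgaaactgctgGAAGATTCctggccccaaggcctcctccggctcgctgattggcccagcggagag
Hspa1b: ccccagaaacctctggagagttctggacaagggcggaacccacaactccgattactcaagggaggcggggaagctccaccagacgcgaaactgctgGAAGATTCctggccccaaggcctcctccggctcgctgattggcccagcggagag
Hspb1: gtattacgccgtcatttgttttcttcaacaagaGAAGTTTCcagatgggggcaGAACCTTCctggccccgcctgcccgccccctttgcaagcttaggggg
Hsph1: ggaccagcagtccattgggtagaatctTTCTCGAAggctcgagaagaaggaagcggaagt
The Hspa1a stretch lies at chr17:34972207-34972356 on the minus strand and the Hspa1b stretch at chr17:34959289-34959438 on the minus strand. Both cover bases 200 to 51 before the gene's start and are identical. Over the full window of 250 bases before the start the pair differed at 3 positions. The Hspb1 stretch lies at chr5:135887769-135887868 on the plus strand, 150 to 51 bases before the start, and holds 2 matches. The Hsph1 stretch lies at chr5:149636337-149636396 on the minus strand, in the last 60 bases before 1 of 2 RefSeq starts, and holds 1 match. The GENCODE model of Hsph1 (chr5:149614287-149636376) begins farther upstream, so the match lies inside that model. From the other RefSeq start the same match lies 54 to 47 bases upstream. Windows were given for 6 of the 10 genes, and 4 of those 6 held GAANNTTC or TTCNNGAA. Dnajb1 and Hspb8 held neither. Both motifs are their own reverse complement, so a search of 1 strand covers both. Of the 32851 windows of the same length in the table, 12.8% held at least 1 of the 2 motifs, and per gene this was 14.5% of 27025 genes. A match is a description of letters and does not show binding. Hspa8, Hsp90aa1, Cryab and Hsf1 are named only.

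The deposited values are estimated counts per gene, and each library summed to between 65569134 and 75436023. Low values piled up at 4 (12828 entries equal to 4, against 5290 equal to 3 and 7264 equal to 5), so the depth in independent reads is not known from the tables. The mean level of Ppara was 7.98 ± 3.38 CPM (counts scaled to a common library total) in LPS PPARα-deficient hearts and 11.3 ± 3.31 CPM in LPS Ppara-flox hearts (SD, n = 4 each). It was 14.6 ± 2.58 CPM in PBS PPARα-deficient hearts and 50.2 ± 9.86 CPM in PBS Ppara-flox hearts (SD, n = 4 each). The text on RNA extraction in the labels speaks of islets, and 4 of 4 islet genes (Ins1, Ins2, Gcg, Sst) had 0 counts in all 16 libraries. The 10 cardiomyocyte genes examined, Myh6 and Ttn among them, summed to between 36500 and 73790 CPM. Their sum was 40770 to 45580 CPM in LPS PPARα-deficient hearts and 62960 to 70820 CPM in PBS PPARα-deficient hearts. It was 36500 to 42700 CPM in LPS Ppara-flox hearts and 66470 to 73790 CPM in PBS Ppara-flox hearts. In whole tissue fewer cells of a type and less RNA per cell cannot be told apart. All LPS libraries carry higher numbers in the file headers than the PBS libraries, so treatment and the order of numbering cannot be told apart.

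Of the 10 genes, LPS changed 5 in PPARα-deficient hearts and 5 in Ppara-flox hearts, mostly downwards. A gene was called changed at an adjusted p under 0.05 in edgeR's quasi-likelihood test, with Benjamini-Hochberg adjustment over all 18713 genes. In PPARα-deficient hearts 2 genes rose (Hspb1 and Cryab) and 3 fell (Hspa1b, Hsph1 and Dnajb1). Of all genes tested in that comparison, 19.4% were called higher and 18.3% lower. In Ppara-flox hearts 1 gene rose (Hspb1) and 4 fell (Hsph1, Dnajb1, Hspb8 and Hsf1), beside 20.2% of all genes called higher and 19.1% lower. The median log2 fold change of the 10 genes was -0.28 in PPARα-deficient hearts, where that of all genes was 0.01. It was -0.55 in Ppara-flox hearts, where that of all genes was also 0.01. The share of the 10 genes that rose was near or below that of all genes, and the share that fell was above it, on counts of 1 to 4 genes.

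**Figure D1:**
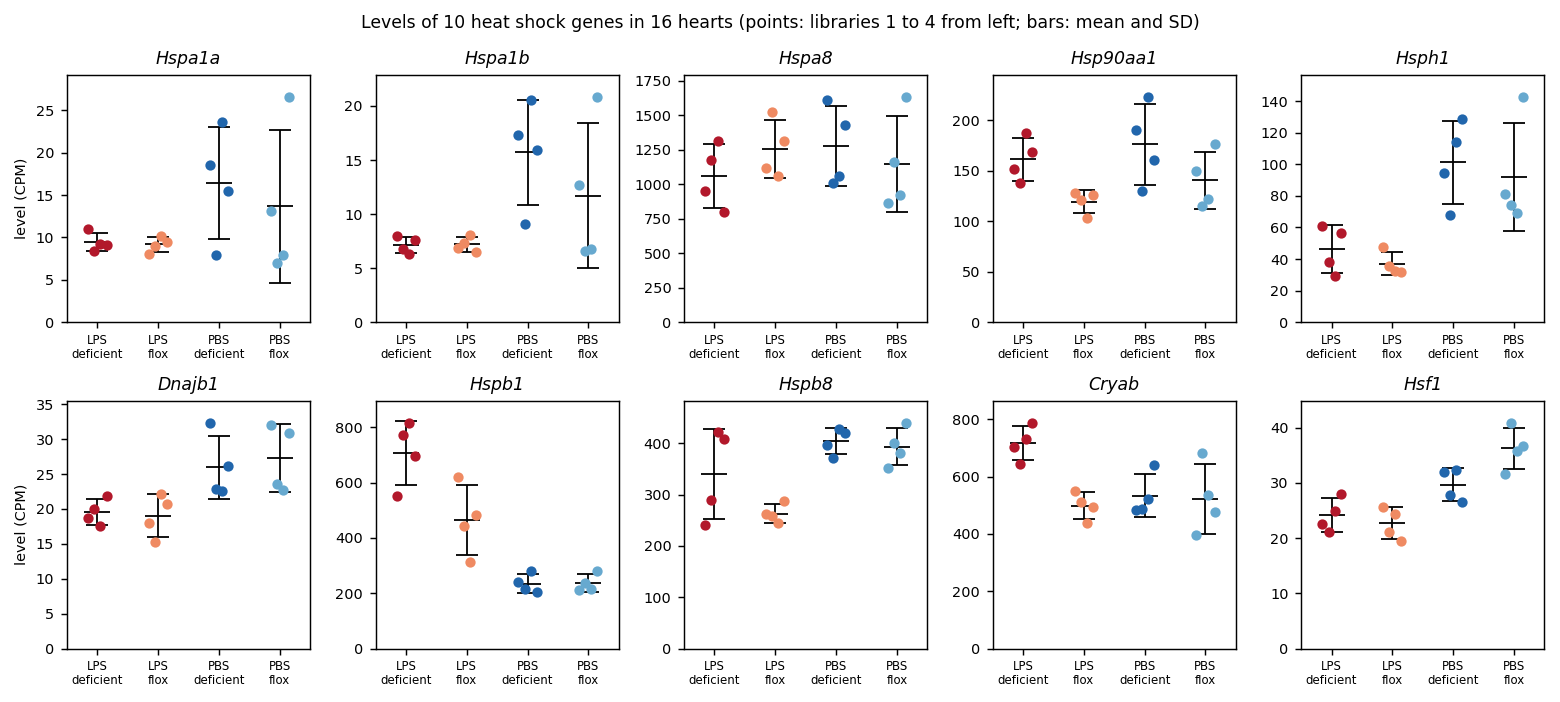
Levels of the 10 genes in CPM (vertical axes, each starting at 0) in the 4 groups of 4 libraries; points are libraries 1 to 4 from left to right, and bars give the mean and SD. Hspb1 lies above both PBS groups in every LPS library, and Hspa1a and Hspa1b spread widely in PBS libraries and little in LPS libraries.

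Levels per kilobase of exon set the small heat shock proteins and Hspa8 apart from the other 6 genes. In LPS PPARα-deficient hearts the mean level was 687.1 CPM per kb for Hspb1, 484.7 for Cryab, 246.4 for Hspa8 and 174.3 for Hspb8. In PBS PPARα-deficient hearts it was 227.7 CPM per kb for Hspb1, 360.8 for Cryab, 296.5 for Hspa8 and 207.0 for Hspb8. Hspb1 was thus the first of the 10 in LPS hearts and the third in PBS hearts of this genotype.
In LPS Ppara-flox hearts the mean level was 450.3 CPM per kb for Hspb1, 337.6 for Cryab, 291.4 for Hspa8 and 134.9 for Hspb8. In PBS Ppara-flox hearts it was 228.8 CPM per kb for Hspb1, 353.1 for Cryab, 266.0 for Hspa8 and 201.5 for Hspb8. The libraries of each neighbouring pair in that PBS order (Cryab, Hspa8, Hspb1, Hspb8) overlapped.
Hsp90aa1 came next at 35.79 CPM per kb in PBS Ppara-flox hearts, below every value of Hspb8 and above every value of Hsph1. Hsph1 averaged 12.64 and Dnajb1 8.52 CPM per kb there, with overlapping libraries. Hsf1 averaged 5.10, Hspa1a 4.60 and Hspa1b 4.18 CPM per kb in the same hearts, and these 3 overlapped. Hspa1a and Hspa1b were therefore among the lowest of the 10 in PBS Ppara-flox hearts.

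Hspb1 encodes the small heat shock protein known in mouse as Hsp25, which binds actin and desmin. Its level was 550.2, 771.7, 814.3 and 697.5 CPM in LPS PPARα-deficient hearts, against 240.4, 215.9, 279.6 and 203.0 CPM in PBS PPARα-deficient hearts. It was 620.5, 442.6, 312.7 and 481.1 CPM in LPS Ppara-flox hearts, against 210.3, 236.7, 215.5 and 281.1 CPM in PBS Ppara-flox hearts. In both genotypes every LPS library was above every PBS library, and the lowest LPS value was that of Ppara-flox library 3. The log2 fold change after LPS was 1.59 ± 0.18 in PPARα-deficient hearts (SE, adjusted p = 2.75e-06 by edgeR) and 0.98 ± 0.18 in Ppara-flox hearts (SE, adjusted p = 0.000291 by edgeR). Both calls held with each library left out in turn. The processed pseudogene Hsp25-ps1 shares 44.0% of Hspb1's stretches of 100 bases and held 6.2% to 8.29% of their summed counts, so reads may be split between them. With its counts added, Hspb1 was called in the same comparisons.

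Cryab encodes αB-crystallin, a small heat shock protein abundant in heart muscle that binds desmin. Its level was 704.4, 644.6, 732.2 and 786.4 CPM in LPS PPARα-deficient hearts, against 482.4, 488.5, 520.9 and 642.6 CPM in PBS PPARα-deficient hearts. It was 550.0, 511.7, 439.4 and 495.9 CPM in LPS Ppara-flox hearts, against 395.2, 681.3, 537.1 and 475.1 CPM in PBS Ppara-flox hearts. The PPARα-deficient groups did not overlap, though the lowest LPS library (644.6 CPM) was close to the highest PBS library (642.6 CPM), while the Ppara-flox groups overlapped.
The log2 fold change after LPS was 0.43 ± 0.14 in PPARα-deficient hearts (SE, adjusted p = 0.0218 by edgeR). That call was lost without LPS library 4 (adjusted p = 0.0604 by edgeR) or without PBS library 1 (0.0657), 2 (0.0622) or 3 (0.0503) of that genotype. In Ppara-flox hearts the log2 fold change was -0.06 ± 0.14 (SE, adjusted p = 0.752 by edgeR). Exons of Cryab overlap those of its neighbour Hspb2 on the opposite strand over 252 bases, and the strand setting of the counting is not given in the sources used here, so their reads may not be separable.

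Hspb8, a small heat shock protein that works with the co-chaperone Bag3 in selective autophagy, fell in Ppara-flox hearts. Its level was 241.1, 289.8, 421.2 and 407.8 CPM in LPS PPARα-deficient hearts, against 396.7, 370.6, 428.3 and 419.1 CPM in PBS PPARα-deficient hearts. It was 262.6, 257.4, 244.5 and 287.5 CPM in LPS Ppara-flox hearts, against 351.9, 400.6, 380.8 and 438.6 CPM in PBS Ppara-flox hearts. The Ppara-flox groups did not overlap, whereas LPS PPARα-deficient libraries 3 and 4 lay within the range of PBS and libraries 1 and 2 below it.
The log2 fold change after LPS was -0.25 ± 0.14 in PPARα-deficient hearts (SE, adjusted p = 0.181 by edgeR) and -0.58 ± 0.14 in Ppara-flox hearts (SE, adjusted p = 0.00334 by edgeR). Without LPS PPARα-deficient library 3 the value of that genotype passed the threshold (adjusted p = 0.0495 by edgeR).

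The inducible Hsp70 genes Hspa1a and Hspa1b share their coding sequence almost entirely, and 47.1% of Hspa1a's stretches of 100 bases also occur in Hspa1b. Reads may be split between them, so their sum is given first. The sum was 18.91, 15.21, 15.55 and 16.73 CPM in LPS PPARα-deficient hearts, against 35.85, 16.97, 44.24 and 31.38 CPM in PBS PPARα-deficient hearts. It was 14.94, 16.28, 18.25 and 16.03 CPM in LPS Ppara-flox hearts, against 25.87, 13.50, 14.70 and 47.39 CPM in PBS Ppara-flox hearts. LPS libraries were low and close together, and PBS libraries ranged from that level to well above it, so the groups overlapped in both genotypes.
After LPS the sum had a log2 fold change of -0.95 ± 0.33 in PPARα-deficient hearts (SE, adjusted p = 0.0294 by edgeR) and -0.63 ± 0.32 in Ppara-flox hearts (SE, adjusted p = 0.139 by edgeR). The coefficient of variation of the sum was 10.1% in LPS PPARα-deficient hearts and 35.5% in PBS PPARα-deficient hearts. It was 8.43% in LPS Ppara-flox hearts and 61.9% in PBS Ppara-flox hearts.

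Taken singly, Hspa1b had 7.94, 6.79, 6.35 and 7.59 CPM in LPS PPARα-deficient hearts, against 17.28, 9.05, 20.57 and 15.96 CPM in PBS PPARα-deficient hearts. These groups did not overlap, and the log2 fold change was -1.13 ± 0.31 (SE, adjusted p = 0.00778 by edgeR). Hspa1b averaged 7.19 ± 0.68 CPM in LPS Ppara-flox hearts and 11.7 ± 6.72 CPM in PBS Ppara-flox hearts (SD, n = 4 each), where the log2 fold change was -0.70 ± 0.31 (SE, adjusted p = 0.0808 by edgeR). Leaving out PBS Ppara-flox library 2 (adjusted p = 0.0263 by edgeR) or 3 (0.0271) brought it past the threshold, and over all 8 libraries left out in turn the log2 fold change ran from -0.90 to -0.27.
Hspa1a averaged 9.43 ± 1.08 CPM in LPS PPARα-deficient hearts and 16.4 ± 6.59 CPM in PBS PPARα-deficient hearts (SD, n = 4 each). Its log2 fold change was -0.80 ± 0.35 (SE, adjusted p = 0.0870 by edgeR), and without PBS library 2 the adjusted p by edgeR was 0.0255. In Ppara-flox hearts Hspa1a averaged 9.18 ± 0.88 CPM after LPS and 13.7 ± 9.03 CPM after PBS (SD, n = 4 each), a log2 fold change of -0.57 ± 0.35 (SE, adjusted p = 0.219 by edgeR) that ran from -0.79 to -0.03 with single libraries left out. The 2 genes lie in tandem on chromosome 17, at chr17:34969190-34972156 (Hspa1a) and chr17:34956436-34959238 (Hspa1b) on the minus strand of GRCm38. Exons of Hspa1a overlap the opposite-strand model Gm20481 over 564 bases.

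Hspa8, the constitutive Hsc70 protein, had 954.1, 1175, 1314 and 796.1 CPM in LPS PPARα-deficient hearts, against 1609, 1007, 1058 and 1429 CPM in PBS PPARα-deficient hearts. It had 1115, 1524, 1062 and 1313 CPM in LPS Ppara-flox hearts, against 862.5, 1159, 924.2 and 1631 CPM in PBS Ppara-flox hearts. Groups overlapped in both genotypes. After LPS the log2 fold change was -0.27 ± 0.21 in PPARα-deficient hearts (SE, adjusted p = 0.344 by edgeR; 95% interval -0.71 to 0.17) and 0.13 ± 0.21 in Ppara-flox hearts (SE, adjusted p = 0.661 by edgeR; 95% interval -0.31 to 0.57). With single libraries left out these ran from -0.39 to -0.14 in PPARα-deficient hearts and from 0.018 to 0.35 in Ppara-flox hearts. The processed pseudogene Gm15459 shares 26.3% of Hspa8's stretches of 100 bases and held 11.9% to 17.4% of their summed counts. Gm15459 itself was called lower after LPS in PPARα-deficient hearts (log2 fold change -0.26 ± 0.10, SE, adjusted p = 0.0441 by edgeR). In Ppara-flox hearts it was not called (0.02 ± 0.10, SE, adjusted p = 0.913 by edgeR).

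Hsph1, the Hsp110 nucleotide exchange factor of Hsp70, fell most of the 10 in Ppara-flox hearts. Its level was 61.05, 38.31, 29.20 and 56.74 CPM in LPS PPARα-deficient hearts, against 94.46, 68.09, 114.4 and 128.8 CPM in PBS PPARα-deficient hearts. It was 47.80, 35.90, 32.39 and 32.04 CPM in LPS Ppara-flox hearts, against 81.14, 74.03, 69.46 and 142.6 CPM in PBS Ppara-flox hearts. The groups did not overlap in either genotype.
Hsph1 had a log2 fold change of -1.13 ± 0.27 in PPARα-deficient hearts (SE, adjusted p = 0.00281 by edgeR) and -1.31 ± 0.27 in Ppara-flox hearts (SE, adjusted p = 0.000879 by edgeR). Both calls held with each library left out in turn.

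Dnajb1, the Hsp40 that stimulates the ATPase of Hsp70, had 18.75, 20.00, 17.60 and 21.84 CPM in LPS PPARα-deficient hearts, against 32.27, 22.80, 22.64 and 26.17 CPM in PBS PPARα-deficient hearts. It had 17.96, 15.22, 22.13 and 20.74 CPM in LPS Ppara-flox hearts, against 32.09, 23.54, 22.69 and 30.82 CPM in PBS Ppara-flox hearts. The groups did not overlap in either genotype, though the nearest libraries were less than 1 CPM apart in both.
In PPARα-deficient hearts the log2 fold change was -0.41 ± 0.15 (SE, adjusted p = 0.0387 by edgeR). That call was lost without LPS library 1 (adjusted p = 0.0851 by edgeR), 2 (0.0666) or 3 (0.101), or without PBS library 1 (0.153) or 4 (0.0698), and with no filter on low counts (0.0531). In Ppara-flox hearts it was -0.52 ± 0.15 (SE, adjusted p = 0.0103 by edgeR) and the call held with each library left out.

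Hsp90aa1 had 151.2, 137.7, 186.8 and 168.7 CPM in LPS PPARα-deficient hearts, against 190.3, 129.5, 222.8 and 161.0 CPM in PBS PPARα-deficient hearts. It had 128.1, 120.9, 103.0 and 125.8 CPM in LPS Ppara-flox hearts, against 149.3, 114.8, 121.9 and 176.7 CPM in PBS Ppara-flox hearts. The treatment groups overlapped in both genotypes, with log2 fold changes of -0.13 ± 0.16 in PPARα-deficient hearts (SE, adjusted p = 0.578 by edgeR) and -0.24 ± 0.16 in Ppara-flox hearts (SE, adjusted p = 0.269 by edgeR). The pseudogene Gm12346 shares 31.6% of the stretches of 100 bases of Hsp90aa1 and held 2.66% to 3.95% of their summed counts.

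Hsf1, the master activator of the heat shock genes, had 22.60, 21.10, 24.89 and 28.03 CPM in LPS PPARα-deficient hearts, against 31.96, 27.75, 32.42 and 26.47 CPM in PBS PPARα-deficient hearts. It had 25.71, 21.11, 24.44 and 19.45 CPM in LPS Ppara-flox hearts, against 31.66, 40.78, 35.77 and 36.70 CPM in PBS Ppara-flox hearts. The Ppara-flox groups did not overlap, and the PPARα-deficient groups overlapped, because LPS library 4 lay above PBS libraries 2 and 4.
Its log2 fold change was -0.30 ± 0.12 in PPARα-deficient hearts (SE, adjusted p = 0.0549 by edgeR), and without LPS library 4 (0.0229) or PBS library 4 (0.0407) of that genotype it passed the threshold. In Ppara-flox hearts it was -0.68 ± 0.12 (SE, adjusted p = 0.000199 by edgeR) and the call held with each library left out. HSF1 is mainly controlled through its protein, which was not measured here.

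**Figure D2:**
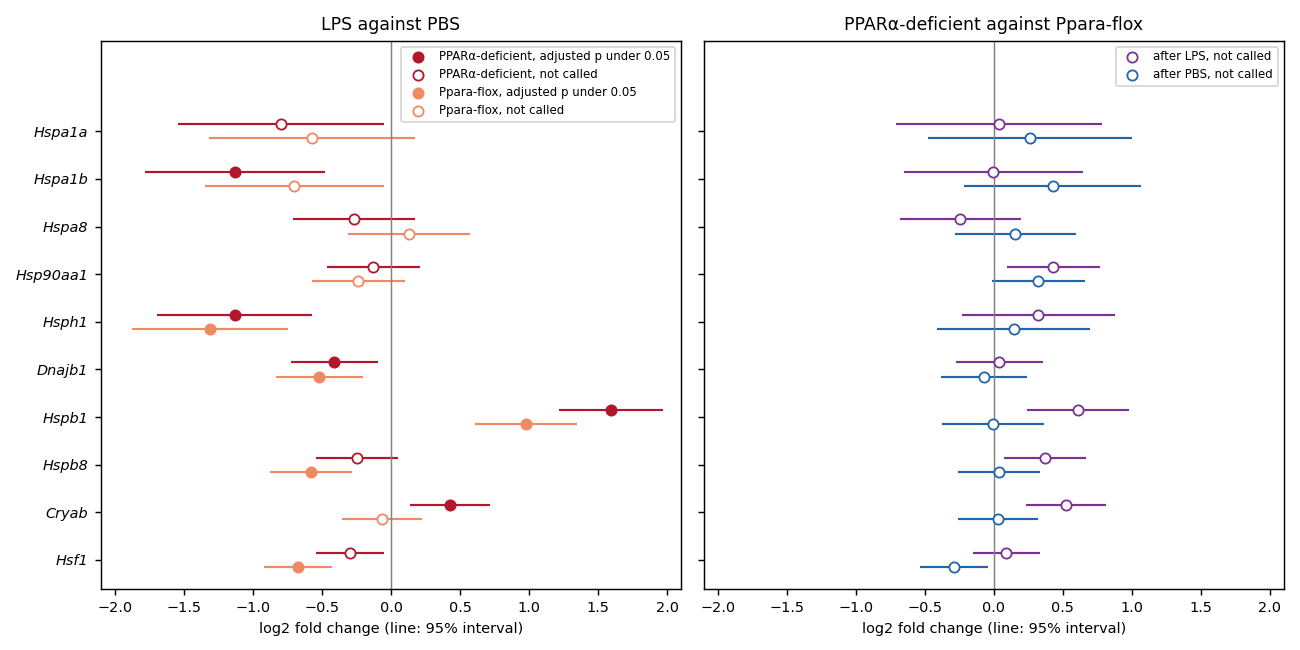
Log2 fold changes of the 10 genes (horizontal axes) with 95% intervals, LPS against PBS in PPARα-deficient and Ppara-flox hearts (left) and PPARα-deficient against Ppara-flox hearts after LPS and after PBS (right). Filled points passed an adjusted p under 0.05; Hspb1 is far to the right on the left panel, and no point on the right panel is filled.

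Groups without overlap between LPS and PBS were found for 2 genes that were higher and 3 that were lower in PPARα-deficient hearts, beside 19.5% and 18.4% of all genes. In Ppara-flox hearts they were found for 1 gene higher and 4 lower, beside 19.2% and 18.4% of all genes.

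Between genotypes none of the 10 genes was called by edgeR. In PBS hearts 0 of 10 passed, beside 0.433% of all genes called. At an unadjusted p under 0.05 there was 1 of 10 in PBS hearts, Hsf1 (log2 fold change -0.29 ± 0.12, SE, adjusted p = 0.722 by edgeR), beside 5.57% of all genes, and DESeq2 and limma-voom called 0. In LPS hearts 0 of 10 passed in edgeR, beside 1.23% of all genes called. At an unadjusted p under 0.05 there were 4 in LPS hearts (Hspb1, Cryab, Hsp90aa1 and Hspb8), beside 9.13% of all genes, and all 4 were higher in PPARα-deficient hearts. DESeq2 called 2 of them, Cryab (adjusted p = 0.0184) and Hspb1 (0.0297), and limma-voom called 0.

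Cryab was higher in every LPS PPARα-deficient library (644.6 to 786.4 CPM) than in every LPS Ppara-flox library (439.4 to 550.0 CPM). Its log2 fold change was 0.52 ± 0.14 (SE, adjusted p = 0.0946 by edgeR; 95% interval 0.23 to 0.81). In a fit to these 8 libraries alone the adjusted p by edgeR was 0.0368. After PBS the log2 fold change was 0.03 ± 0.14 (SE, adjusted p = 1 by edgeR).
Hspb1 overlapped between the genotypes after LPS, through PPARα-deficient library 1 (550.2 CPM) and Ppara-flox library 1 (620.5 CPM). Its log2 fold change was 0.61 ± 0.17 (SE, adjusted p = 0.138 by edgeR; 95% interval 0.24 to 0.98), and 0.78 without LPS Ppara-flox library 1 (adjusted p = 0.0357 by edgeR). After PBS it was -0.01 ± 0.17 (SE, adjusted p = 1 by edgeR).
Hsp90aa1 was higher in every LPS PPARα-deficient library (137.7 to 186.8 CPM) than in every LPS Ppara-flox library (103.0 to 128.1 CPM), with a log2 fold change of 0.43 ± 0.16 (SE, adjusted p = 0.348 by edgeR; 95% interval 0.09 to 0.77). After PBS its log2 fold change was 0.32 ± 0.16 (SE, adjusted p = 0.922 by edgeR) with overlapping groups. Groups with no overlap and higher values in PPARα-deficient hearts made up 2.53% of all genes after LPS, and 2 of the 10 genes (Hsp90aa1 and Cryab) were such. Groups with no overlap and lower values made up 2.79% of all genes after LPS and 0 of the 10. After PBS the shares of all genes were 1.57% higher and 2.42% lower, and all 10 genes overlapped between genotypes.
Hspb8 had a log2 fold change of 0.37 ± 0.14 (SE, adjusted p = 0.363 by edgeR) after LPS and overlapped between the genotypes. Without LPS PPARα-deficient library 1 it was 0.50 (adjusted p = 0.0451 by edgeR). The remaining 6 genes ranged from -0.24 (Hspa8) to 0.32 (Hsph1) on the log2 scale after LPS. The 8 endothelial marker genes summed to 844.9 to 885.0 CPM in LPS PPARα-deficient hearts, against 903.9 to 1054 CPM in LPS Ppara-flox hearts, without overlap. In this comparison 0 of the 8 were called. The 10 cardiomyocyte genes summed to 40770 to 45580 CPM and 36500 to 42700 CPM in the same groups, with overlap, and 1 was called higher. The part of both lists in these differences was not tested.

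The difference of the 2 LPS effects, PPARα-deficient minus Ppara-flox, was called for 0 of the 10 genes by edgeR, DESeq2 and limma-voom, and 0% of all genes were called by edgeR. At an unadjusted p under 0.05 there were 3 of 10, beside 5.74% of all genes: Hspb1 (0.62 ± 0.25), Cryab (0.49 ± 0.19) and Hsf1 (0.38 ± 0.16), each as a log2 difference with its SE. Their adjusted p-values by edgeR were 0.815, 0.815 and 0.835. Whether the LPS effects differ by genotype was thus not resolved at this number of libraries, and calls made in 1 genotype only (Cryab, Hspa1b, Hspb8 and Hsf1, and the sum of Hspa1a and Hspa1b) do not show it.

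**Figure D3:**
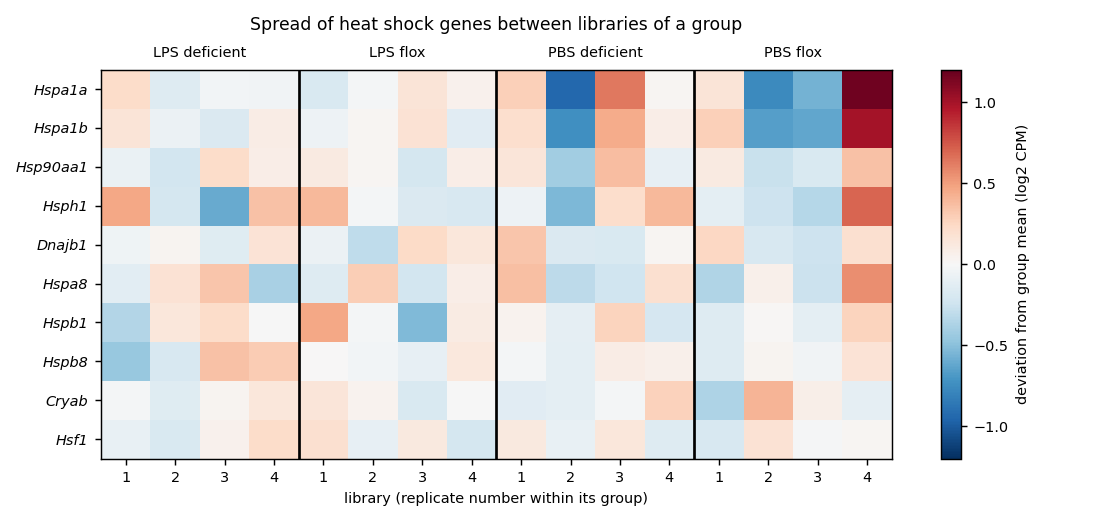
Deviation of each library from its group's mean, in log2 CPM (colour), for the 10 genes (rows) in the 16 libraries (columns, grouped). PBS Ppara-flox library 4 is high in Hspa1a, Hspa1b, Hsph1 and Hspa8, and PBS PPARα-deficient library 2 is low in Hspa1a, Hspa1b, Hsp90aa1 and Hsph1.

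Within the PBS groups the same library was the highest or the lowest in several of the genes. PBS Ppara-flox library 4 was the highest of its group in 7 of them (Hspa1a, Hspa1b, Hspa8, Hsp90aa1, Hsph1, Hspb1 and Hspb8). PBS PPARα-deficient library 3 was the highest of its group in 6 (Hspa1a, Hspa1b, Hsp90aa1, Hspb1, Hspb8 and Hsf1), and library 2 of that group was the lowest in 6 (Hspa1a, Hspa1b, Hspa8, Hsp90aa1, Hsph1 and Hspb8). In LPS Ppara-flox hearts library 1 was the highest in Hsp90aa1, Hsph1, Hspb1, Cryab and Hsf1. Library 3 of that group was the lowest in Hspa8, Hsp90aa1, Hspb1, Hspb8 and Cryab. How often each library held these places over all genes was not counted, so a shift of the whole library cannot be told apart. Hspa1a and Hspa1b may hold the same reads. The 16 immediate early genes listed, which respond to handling and stress of tissue, were set beside the PBS libraries named, and their part in the spread was not tested. Their summed level was 399.9 CPM in PBS Ppara-flox library 4, within the 365.3 to 454.3 CPM of its group, and 349.5 CPM in PBS PPARα-deficient library 3, the lowest of its group. It was 465.5 CPM in PBS PPARα-deficient library 2, within the 349.5 to 499.9 CPM of its group. The same list was 715.5 to 813.1 CPM in LPS PPARα-deficient hearts and 714.8 to 961.4 CPM in LPS Ppara-flox hearts, against up to 499.9 CPM in PBS hearts. The 5 erythroid marker genes summed to 1328 CPM in PBS PPARα-deficient library 2, the highest of its group, and 124.8 CPM in library 3, the lowest. They summed to 193.2 CPM in PBS Ppara-flox library 4, within the 175.4 to 657.6 CPM of its group. Their part in the spread was not tested either.

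The profile most like that of the summed pair was sought over the 16 libraries, as the root mean square distance between log2 CPM deviations from the 4 group means scaled to an SD of 1. Smaller values mean a closer profile, and the median over the other 18711 genes was 1.37. The nearest genes outside the 10 were Gm7816 (0.5002), Dnaja1 (0.518), P4ha1 (0.533), Dram2 (0.538) and Kcnq1ot1 (0.548). Gm7816 is a processed pseudogene that shares 45.8% of its stretches of 100 bases with Dnaja1, so these 2 may hold the same reads. Within the 10, Hsp90aa1 was nearest (0.635, rank 27), then Hsph1 (0.778, rank 147) and Dnajb1 (0.951, rank 873). Cryab (1.61) lay farther than the median. The coefficient of variation of the pair was 10.1% and 8.43% in the LPS groups and 35.5% and 61.9% in the PBS groups (PPARα-deficient, then Ppara-flox). Its profile therefore rests mostly on the PBS libraries. How near the closest of 18711 genes would lie by chance was not worked out.

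The wider chaperone network was counted in 83 further genes from a list, of which 82 were tested. After LPS 23 rose and 19 fell in PPARα-deficient hearts, and 17 rose and 20 fell in Ppara-flox hearts. All genes tested were called higher in 19.4% and lower in 18.3% of cases in PPARα-deficient hearts, and in 20.2% and 19.1% in Ppara-flox hearts, and the counts of the role groups are to be read against these shares. Role groups are counted one by one, and no test of a group was made. The difference of the 2 LPS effects was called by edgeR for 0 of the 82 genes, beside 0% of all genes. Genotype in PBS hearts was called for 0 of the 82, beside 0.433% of all genes. Calls or counts that appear in 1 genotype only therefore do not show that the LPS effects differ by genotype.

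**Figure D4:**
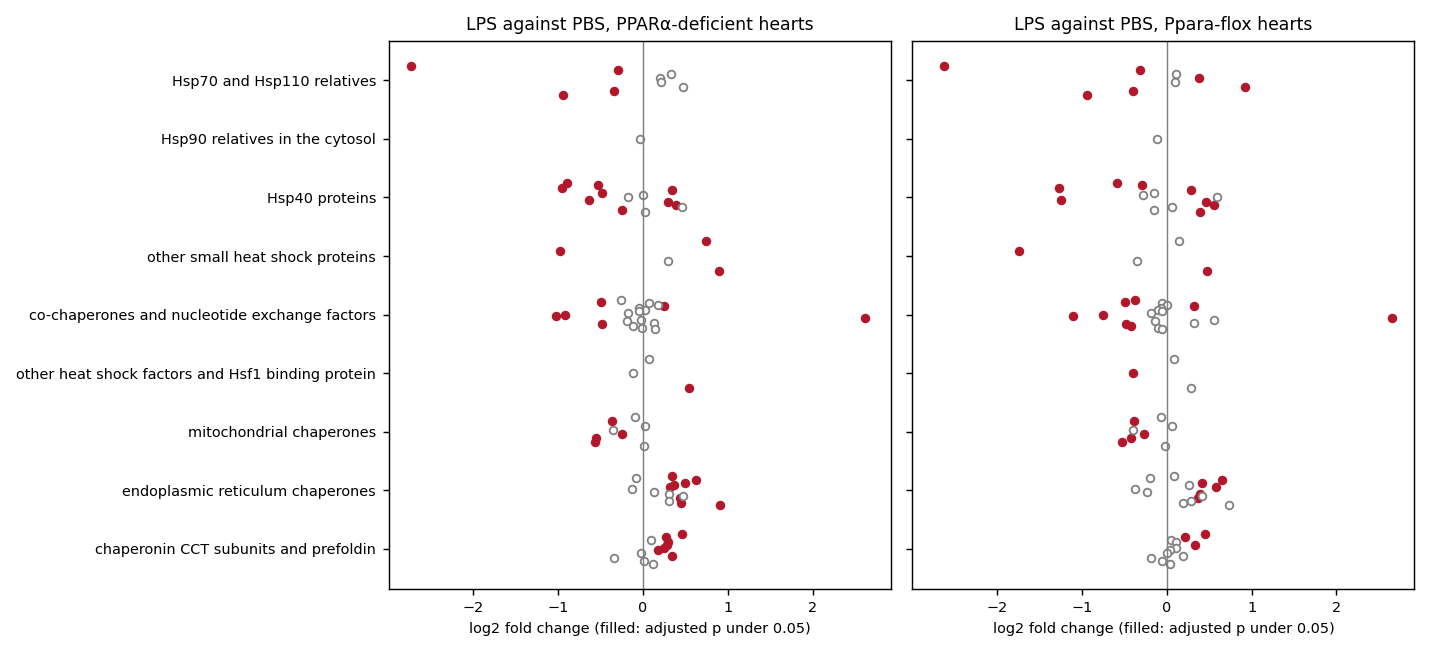
Log2 fold change after LPS (horizontal axes) of the 82 tested chaperone genes outside the 10, by role group (rows), in PPARα-deficient hearts (left) and Ppara-flox hearts (right). Filled points passed an adjusted p under 0.05; every filled point is right of 0 for endoplasmic reticulum chaperones and left of 0 for mitochondrial chaperones.

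Relatives of Hsp70 and Hsp110 included 4 genes that fell in both genotypes. Hspa12a, a distant Hsp70 relative, had the largest fall of the list, with 6.40 ± 0.14 CPM in LPS PPARα-deficient hearts against 42.4 ± 3.51 CPM in PBS PPARα-deficient hearts (SD, n = 4 each). It had 5.80 ± 0.65 CPM in LPS Ppara-flox hearts and 35.7 ± 2.03 CPM in PBS Ppara-flox hearts (SD, n = 4 each). Its log2 fold change was -2.73 ± 0.10 in PPARα-deficient hearts (SE, adjusted p = 1.44e-11 by edgeR) and -2.62 ± 0.10 in Ppara-flox hearts (SE, adjusted p = 2.54e-11 by edgeR). Hspa4l and Hspa4, both Hsp110-type exchange factors, and Hspa12b also fell in both genotypes, and Hspa2 and Hspa14 rose in Ppara-flox hearts. Hsp90ab1, the constitutive Hsp90, was not called, with log2 fold changes of -0.03 in PPARα-deficient and -0.12 in Ppara-flox hearts.
Among 13 Hsp40 proteins, 3 rose and 6 fell in PPARα-deficient hearts, and 4 rose and 4 fell in Ppara-flox hearts, beside 18.3% of all genes called lower in PPARα-deficient and 19.1% in Ppara-flox hearts. Dnaja4 fell by 0.95 in PPARα-deficient hearts and by 1.27 in Ppara-flox hearts on the log2 scale, and Dnaja1 fell by 0.90 in PPARα-deficient hearts and by 0.59 in Ppara-flox hearts. Dnajb5 fell by 0.64 in PPARα-deficient hearts and by 1.24 in Ppara-flox hearts. Dnaja2 fell in both genotypes, and Dnajb6 rose in both.
Of the 19 co-chaperones and exchange factors, 2 rose and 4 fell in PPARα-deficient hearts, and 2 rose and 6 fell in Ppara-flox hearts. Fkbp5, an Hsp90 co-chaperone and a known glucocorticoid target, averaged 352.8 ± 28.0 CPM in LPS PPARα-deficient hearts and 57.8 ± 16.4 CPM in PBS PPARα-deficient hearts (SD, n = 4 each). It averaged 373.6 ± 18.6 CPM in LPS Ppara-flox hearts and 59.6 ± 7.07 CPM in PBS Ppara-flox hearts (SD, n = 4 each). Fkbp4, its close relative on Hsp90, fell in both (log2 fold change -1.02 ± 0.08 in PPARα-deficient and -1.11 ± 0.08 in Ppara-flox hearts, SE), as did St13 and Chordc1, which assist Hsp70 and Hsp90.

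Of the 8 mitochondrial chaperones 4 fell in each genotype, beside 18.3% of all genes in PPARα-deficient and 19.1% in Ppara-flox hearts. Hspa9, the mitochondrial Hsp70, was among those that fell in both. Hspe1 and Hspd1, the partners of the mitochondrial chaperonin, had log2 fold changes of -0.57 and -0.55 in PPARα-deficient hearts and of -0.53 and -0.42 in Ppara-flox hearts. Of the 14 endoplasmic reticulum chaperones 8 rose in PPARα-deficient hearts and 5 in Ppara-flox hearts, beside 19.4% and 20.2% of all genes in these genotypes. Dnajb11 rose by 0.50 in PPARα-deficient hearts and by 0.42 in Ppara-flox hearts on the log2 scale, and Creld2 rose by 0.63 in PPARα-deficient hearts and by 0.65 in Ppara-flox hearts. Dnajc3 rose by 0.32 in PPARα-deficient hearts and by 0.58 in Ppara-flox hearts. Pdia3, a disulfide isomerase, rose in both genotypes, and Pdia6 rose in PPARα-deficient hearts (log2 fold change 0.45). Of the 12 chaperonin CCT and prefoldin genes 7 rose in PPARα-deficient hearts and 3 in Ppara-flox hearts, beside the same 19.4% and 20.2%, and Cct2 rose by 0.46 in PPARα-deficient hearts and by 0.45 in Ppara-flox hearts. Cct3 and Cct6a rose in both genotypes, and Cct5 and Pfdn2 rose in PPARα-deficient hearts. Of the other heat shock factors and Hsf1 binding protein, Hsf4 rose in PPARα-deficient hearts (log2 fold change 0.54) and Hsf2 fell in Ppara-flox hearts (-0.39).

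Among the 4 other small heat shock proteins Hspb7, a cardiac protein of the sarcomere, had 3304, 3595, 3367 and 3430 CPM in LPS PPARα-deficient hearts, against 1696, 1862, 1834 and 1946 CPM in PBS PPARα-deficient hearts. It had 2829, 2647, 2406 and 2645 CPM in LPS Ppara-flox hearts, against 1893, 2015, 1902 and 1772 CPM in PBS Ppara-flox hearts. Every LPS library was above every PBS library, and after LPS every PPARα-deficient library was above every Ppara-flox library. Between genotypes after LPS its log2 fold change was 0.38 ± 0.07 (SE, adjusted p = 0.00499 by edgeR), and in a fit to those 8 libraries alone the adjusted p was 0.05003. Dnaja4 was the other gene of the 82 called between genotypes after LPS (log2 fold change 0.45 ± 0.09, SE, adjusted p = 0.0137 by edgeR), with 75.3 ± 7.39 CPM in PPARα-deficient and 55.2 ± 5.47 CPM in Ppara-flox hearts (SD, n = 4 each). Of all genes, 0.385% were called higher and 0.85% lower in that comparison. The Dnaja4 call was lost without LPS PPARα-deficient library 2 (adjusted p = 0.0557 by edgeR), in the fit to the 8 libraries (0.116), without LPS Ppara-flox library 4 and LPS PPARα-deficient library 3 together (0.114), and at a threshold of 0.01. Hspb2, the neighbour of Cryab, rose in PPARα-deficient hearts (log2 fold change 0.75 ± 0.13, SE), and Hspb3 fell in both genotypes.

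Markers of other cells moved with LPS beside these genes, and their part in the results was not tested. Their counts are to be read against the shares of all genes called after LPS. These were 19.4% higher and 18.3% lower in PPARα-deficient hearts, and 20.2% higher and 19.1% lower in Ppara-flox hearts. The 8 neutrophil genes summed to 28.5 to 32.8 CPM in LPS PPARα-deficient hearts, against 1.66 to 10.6 CPM in PBS PPARα-deficient hearts. They summed to 23.5 to 51.3 CPM in LPS Ppara-flox hearts, against 3.16 to 4.08 CPM in PBS Ppara-flox hearts. Of these 8, 7 rose in PPARα-deficient hearts and 6 in Ppara-flox hearts. The 8 smooth muscle and pericyte genes summed to 500.1 to 554.8 CPM in LPS PPARα-deficient hearts, against 1073 to 1156 CPM in PBS PPARα-deficient hearts. They summed to 554.2 to 629.5 CPM in LPS Ppara-flox hearts, against 1118 to 1168 CPM in PBS Ppara-flox hearts. Of those 8, 6 fell in PPARα-deficient hearts and 7 in Ppara-flox hearts. Of the 10 cardiomyocyte genes 8 fell in PPARα-deficient hearts and 9 in Ppara-flox hearts, and 1 was higher in PPARα-deficient hearts between genotypes after LPS.
The 8 macrophage genes summed to 161.2 to 224.2 CPM in LPS PPARα-deficient hearts, against 293.0 to 346.5 CPM in PBS PPARα-deficient hearts. They summed to 137.2 to 180.7 CPM in LPS Ppara-flox hearts, against 261.7 to 313.3 CPM in PBS Ppara-flox hearts. Of these 8 genes 4 fell and 1 rose in each genotype, and of the 8 fibroblast genes 5 fell and 1 rose in each. The fibroblast genes summed to 834.1 to 945.9 CPM after LPS and 820.6 to 931.9 CPM after PBS in PPARα-deficient hearts. In Ppara-flox hearts these were 706.1 to 955.2 and 912.8 to 998.8 CPM, and both genotypes overlapped. Of the 8 endothelial genes 1 rose and 2 fell in each genotype. Their sums after PBS were 935.9 to 1107 CPM in PPARα-deficient hearts, above all those after LPS. In Ppara-flox hearts they were 985.0 to 1066 CPM and overlapped those after LPS. The 5 erythroid genes summed to 33.9 to 306.5 CPM in LPS PPARα-deficient hearts, against 124.8 to 1328 CPM in PBS PPARα-deficient hearts. They summed to 99.8 to 428.7 CPM in LPS Ppara-flox hearts, against 175.4 to 657.6 CPM in PBS Ppara-flox hearts. Of these 5, 2 fell in PPARα-deficient hearts and 0 in Ppara-flox hearts.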

How the data were processed

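RNA from mouse hearts was sequenced in 16 libraries with a stranded kit, per the labels. The authors deposited estimated counts per gene symbol (expected counts, whole numbers, not scaled between libraries). Tools listed without roles in the submitters' processing notes are HISAT, fastp 0.23.2, DESeq2 1.30.1 and StringTie 1.3.3b, with build GRCm38; the counter, annotation and strand setting are not given in the sources used here. Of 55421 table lines, 27 whose symbols had become dates were dropped (between 0.0644% and 0.0861% of counts) and 116 repeats were summed. After filterByExpr on the 4 groups, genes were scaled by TMM and fitted with edgeR 4.0.16 (glmQLFit, glmQLFTest; R 4.3.3) as 4 group means over all 16 libraries, with Benjamini-Hochberg adjustment and calls at an adjusted p under 0.05. The model was tested on simulated counts, drawn independently for each library with the spread estimated from these data. That simulation does not cover the pile-up of low values or how replicates relate. CPM uses TMM-scaled totals; coordinates and exon lengths are from GENCODE on GRCm38.

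Members and lists were chosen with earlier results of these data known. All 10 members are named, with, for each role group of the other chaperone genes and each comparison, up to 3 called genes with the smallest adjusted p, Ppara, and the 5 nearest profiles; Hsp90ab1, Hspa2, Hspa12b and Hspa14 were named after their values were seen. The labels do not say how replicates relate, so p-values measure only the spread between these samples, which may be technical. Alternatives were RLE and upper-quartile scaling, DESeq2 1.42.0, limma-voom (limma 3.58.1), no filter, a filter keeping genes with 1 CPM or more in 8 libraries, a threshold of 0.01, the 8 libraries compared, a replicate block, counts divided by 4, the 2 PBS number series as a block, the summed Hspa1a and Hspa1b, leaving out each library, and leaving out LPS Ppara-flox library 4 with LPS PPARα-deficient library 3. Adding pseudogene counts was chosen after seeing the data. Tables and figures used Python 3.11.15, pandas 2.3.3, numpy 2.4.6 and matplotlib 3.10.9.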

Additional observations from a re-analysis of the deposited data

Results flagged for a closer look

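One value stood apart from its group of 4. Hsph1 was 142.6 CPM in PBS Ppara-flox library 4, against 69.46 to 81.14 CPM in the other 3 libraries of that group, and the gap to the nearest was 0.8405 of the group's whole range. The rule for such a gap flags about 1 in 20 groups by chance, and it was applied to 11 features in 4 groups. The same library was also highest in Hspa1a, Hspa1b, Hspa8, Hsp90aa1, Hspb1 and Hspb8, and its place over all genes was not counted. Hsph1 was still called lower after LPS in Ppara-flox hearts without it, as without each other library, with log2 fold changes from -1.46 to -1.02.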

How the results depend on the processing

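Of 1150 alternative values for the 10 genes, 1089 kept their direction and side of the threshold, 15 lost a call, 19 gained one and 27 changed sign. All 219 alternative values of called genes kept their direction, and 204 stayed past the threshold. Genes higher between genotypes after LPS numbered 2 with DESeq2 and 1 in a fit to the 8 libraries, against 0. Genes higher after LPS in PPARα-deficient hearts numbered 1 at an adjusted p under 0.01 and 1 without LPS Ppara-flox library 4 and LPS PPARα-deficient library 3, against 2. Genes lower there numbered 5 with DESeq2, against 3, as Hsf1 (adjusted p = 0.0440) and Hspa1a (0.0425) were gained. Hsf1 there also passed with upper-quartile scaling (0.0314), the stricter filter (0.0400) and counts divided by 4 (0.0399), and Hspa1a in a fit to the 8 libraries (0.0426). Hspa1b in Ppara-flox hearts passed with DESeq2 (0.0419). With single libraries left out, PPARα-deficient hearts gave 1 to 2 higher and 2 to 4 lower, Ppara-flox hearts 1 higher and 4 to 5 lower, genotypes after LPS 0 to 1 higher and 0 lower, and genotypes after PBS and the difference of LPS effects 0. Every sign change was in an uncalled value, and its cause was not tested. Not all of these values were near 0: the difference of LPS effects was -0.22 for Hspa1a and 0.18 for Hsph1 with all 16 libraries. Between genotypes after LPS Hspa1b was 0.0048 with the stricter filter, 0.0014 with DESeq2 and with RLE, 0.0058 with upper-quartile scaling and 0.0069 without both libraries, against -0.0051. With single libraries left out, the log2 ranges after LPS between genotypes were -0.053 to 0.12 for Dnajb1, -0.042 to 0.092 for Hspa1a and -0.058 to 0.057 for Hspa1b. After PBS between genotypes they were -0.081 to 0.19 for Cryab, -0.19 to 0.016 for Dnajb1, -0.10 to 0.088 for Hspb1 and -0.010 to 0.096 for Hspb8. For LPS they were -0.25 to 0.0075 for Hsp90aa1 in PPARα-deficient hearts and -0.18 to 0.090 for Cryab in Ppara-flox hearts. For the difference of LPS effects they were -0.020 to 0.24 for Hsp90aa1, -0.77 to 0.0064 for Hspa1a and -0.11 to 0.35 for Hsph1.

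Deviations of libraries with the same replicate number correlated at -0.0658 to 0.0746 in the 4 comparisons. Those of libraries with different numbers correlated at -0.112 to 0.156. These values do not settle whether replicate numbers pair the libraries, and the labels do not say. With the replicate block, calls among the 10 genes were 2 higher and 3 lower in PPARα-deficient hearts and 1 higher and 4 lower in Ppara-flox hearts, as without it, and 0 between genotypes. The 2 number series in the PBS headers, taken as a block, changed no call among the 10 genes; with them genotype in PBS hearts again gave 0 calls, and LPS libraries were not split. The estimated counts limit low genes most, since a value of 4 may stand for 1 read pair, which was not tested; Hspa1a, Hspa1b, Dnajb1 and Hsf1 were the 4 lowest members in CPM.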

Other observations

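Hspb6, a small heat shock protein that was in the chaperone list and not called in any comparison, had an uneven spread after LPS and was chosen after its values were seen. It had 740.1, 820.0, 356.4 and 836.6 CPM in LPS PPARα-deficient hearts and 524.7, 463.2, 999.0 and 908.2 CPM in LPS Ppara-flox hearts. It had 488.6, 604.2, 581.8 and 576.7 CPM in PBS PPARα-deficient hearts and 861.2, 1112, 886.2 and 840.3 CPM in PBS Ppara-flox hearts. The PBS groups did not overlap, and the log2 fold change between genotypes after PBS was -0.72 ± 0.25 (SE, adjusted p = 0.566 by edgeR).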
